A study of Caenorhabditis elegans with 12 samples.

Results

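The 8 tubulin genes tba-1, tba-2, tba-4, tbb-1, tbb-2, tbb-4, tbb-6 and tbg-1 were followed in RNA-seq libraries of dissected Caenorhabditis elegans gonads. They were chosen by name from the 45461 genes, transcripts and pseudogenes with a count, and they were chosen with earlier results of these libraries known, so their own levels, folds and calls are given as a description. The study compared gonads of set-2(bn129) mutants, in which the SET1/COMPASS histone methyltransferase gene set-2 is mutated, over generations grown at 25 °C. The groups, sampled on day 1 of adulthood, were P0 heterozygotes, set-2(bn129)/qC1(qIs26), as the control, then F2 fertile, F4 fertile and F4 sterile set-2(bn129) homozygotes, with 3 samples per group. All groups carry bn129 on at least 1 chromosome and are labelled as strain PFR541, so no wild-type gonad is in the comparison. Each of the 3 lineages gave 1 sample to each group, and the replicate number in the sample titles is read here as the lineage. A sample pooled arms from many animals, cut at the gonad bend, and the F4 sterile animals were picked because no embryos were visible in the uterus.

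α- and β-tubulin form the dimer from which microtubules are built, and γ-tubulin caps minus ends where new microtubules start. C. elegans carries several genes, called isotypes, for α- and β-tubulin, and different cells use different isotypes. Germ cells and early embryos build their spindles mainly from tba-1, tba-2, tbb-1 and tbb-2, ciliated sensory neurons use tbb-4, and tbb-6 is a divergent β-tubulin whose promoter serves as a reporter of mitochondrial stress that depends on the DLK-1/PMK-3 kinase pathway.

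Library totals on genes ran from 3456068 to 10335794 reads, so that 3 reads, taken as the floor, correspond to between 0.283 and 0.895 CPM (counts scaled to library size by edgeR's TMM method). The set-2 transcript was at 141 to 157 CPM in F2 fertile, 123 to 130 CPM in F4 fertile gonads and 131.6 to 135 CPM in F4 sterile gonads, against 186 to 197 CPM in P0 gonads. Germ cell and oocyte genes were abundant in every library: the 14 genes of that list summed to between 9239 and 15017 CPM. Genes of other tissues were present too. The 10 intestine genes summed to between 1039 and 5863 CPM, and in each library most of this was on the yolk protein genes vit-2, vit-5 and vit-6. The F4 sterile library of lineage 2 was the highest of all 12 for each of 4 lists. It summed to 559 CPM for muscle, 5863 CPM for intestine, 31.7 CPM for sperm and 49.2 CPM for ciliated neuron genes, against at most 291, 4170.2, 16.09 and 34.7 CPM in the other F4 sterile libraries. The same library was also the highest for broad neuronal genes, at 199 CPM, and the lowest for the germ cell and oocyte genes, at 9239 CPM.

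In the WS220 coordinates of the deposited table, tba-1 (WBGene00006528) lies on the minus strand of chromosome I from 9785769 to 9787390, and tba-2 (WBGene00006529) on the same strand from 12964668 to 12966865. The somatic α-tubulin gene tba-4 (WBGene00006530) lies on the plus strand of chromosome II from 10918646 to 10920124. On the minus strand of chromosome III lie tbb-1 (WBGene00006536, 10740766 to 10742362), tbb-2 (WBGene00006537, 4015748 to 4017622) and tbg-1 (WBGene00006540, 9625949 to 9629072). The gene tbb-6 (WBGene00006539) lies on the plus strand of chromosome V from 12261785 to 12263349, and tbb-4 (WBGene00006538) on the minus strand of chromosome X from 9434393 to 9436834. Chromosome III also carries set-2. Only P0 animals held the balancer qC1 in place of 1 copy of it. For every gene the balancer, the set-2 genotype and the generation therefore cannot be told apart in any comparison with P0. The members on the balanced chromosome itself are tbb-1, tbb-2 and tbg-1. The pairs tba-1 and tba-2, and tbb-1 and tbb-2, are close paralogs. Only reads that mapped uniquely were kept, so the split of reads within each pair is uncertain. The strand setting of the counting is not given in the sources used here. F55C5.1 overlaps tbb-6 on the other strand with 55 reads over all libraries, and F58A4.7 overlaps tbg-1 with 623.

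The 4 germline isotypes were by far the most abundant of the 8 genes. Per kilobase of coding length, P0 gonads held 1347 to 1474 CPM of tba-2 and 1284 to 1485 CPM of tbb-2, which overlapped. Next came tbb-1 at 787 ± 66.6 and tba-1 at 655 ± 29.2 CPM per kb (SD, n = 3), whose ranges did not overlap. The γ-tubulin gene tbg-1 stood at 91.0 ± 4.39 CPM per kb. Far below were tba-4 at 1.86 ± 0.332, tbb-6 at 0.214 ± 0.0234 and tbb-4 at 0.0600 ± 0.104 CPM per kb, the last from 1 read in 3 libraries.

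In F4 sterile gonads the same 5 genes led, but the means within 2 pairs had changed order. On the same per-kb scale tbb-2 (1206 ± 125) stood above tba-2 (1008 ± 117), with overlapping ranges. The levels of tba-1 (549 ± 67.0) and tbb-1 (541 ± 42.4) also overlapped. tbb-6 averaged 19.4 ± 20.7 CPM per kb, below tbg-1 at 99.0 to 110.2 CPM per kb. tba-4 at 2.57 ± 2.54 and tbb-4 at 1.42 ± 0.714 CPM per kb overlapped.

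**Figure D1:**
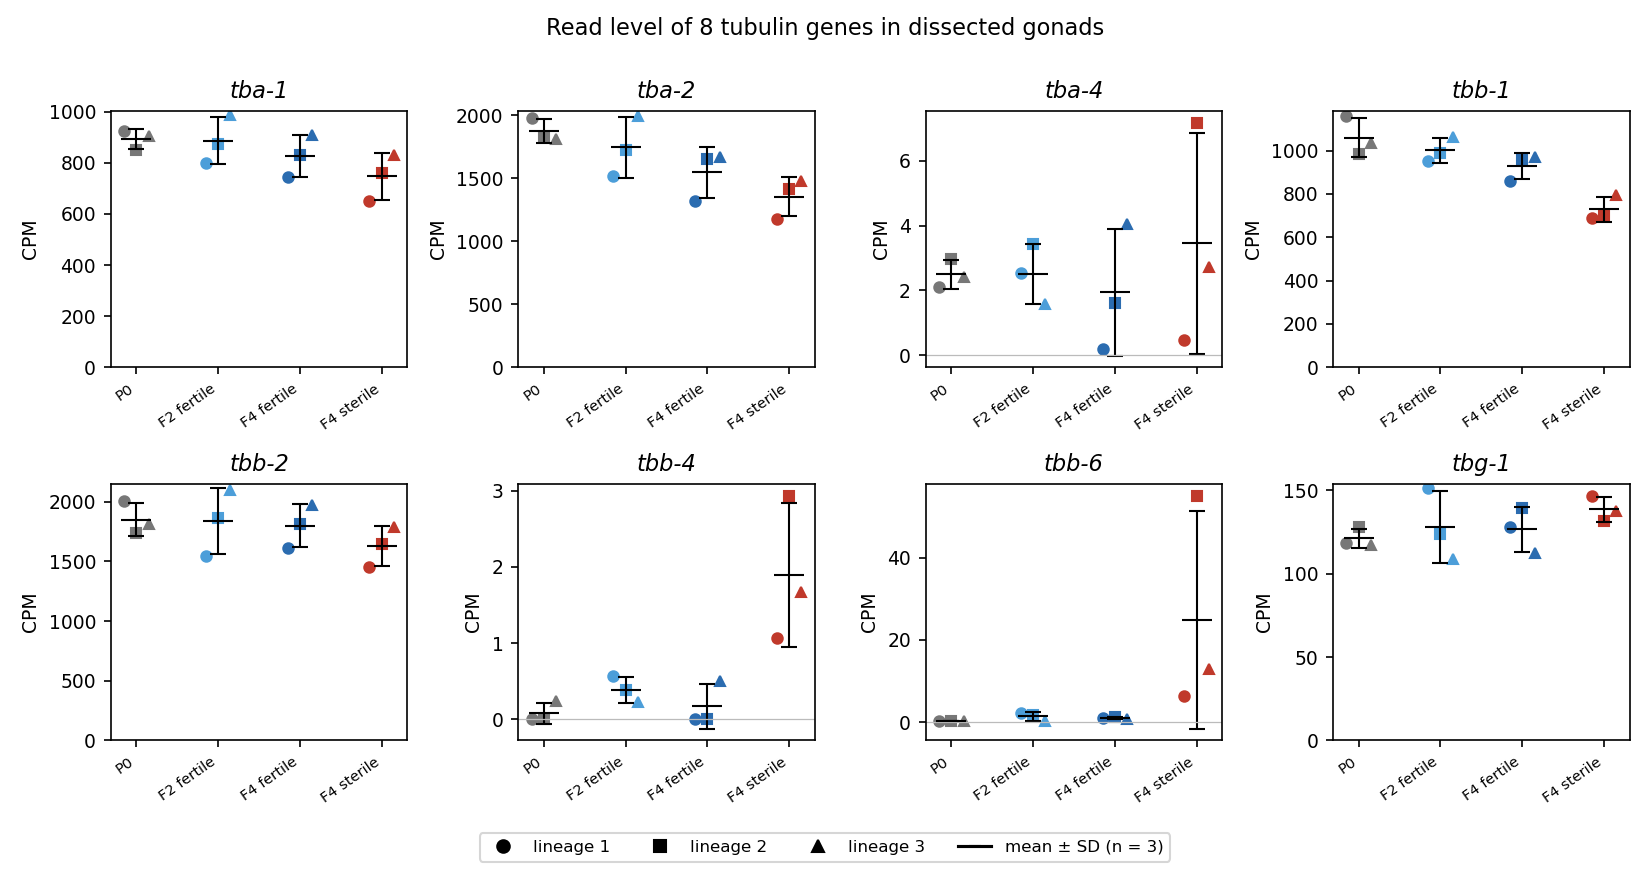
CPM of the 8 tubulin genes in each library, on linear axes that differ between panels, with symbols for the 3 lineages and bars for mean ± SD (n = 3 per group). The F4 sterile points of tbb-6 and tbb-4 lie above those of every other group, and those of tbb-1 lie below, whereas tba-4 was lowest in the F4 fertile and F4 sterile libraries of lineage 1.

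Of the germline α-tubulins, tba-2 was the one called lower in F4 sterile gonads. Its level in lineages 1, 2 and 3 was 1980.4, 1826 and 1809.8 CPM in P0, 1517, 1722 and 1993 CPM in F2 fertile, 1316, 1654 and 1670.5 CPM in F4 fertile gonads, and 1176, 1413 and 1475 CPM in F4 sterile gonads. Every F4 fertile and F4 sterile library was below every P0 library, and F2 fertile libraries overlapped P0. The log2 fold change against P0 was -0.10 ± 0.13 (SE) in F2 fertile, -0.28 ± 0.13 in F4 fertile gonads and -0.47 ± 0.13 in F4 sterile gonads. In bulk gonads, fewer cells that express a gene and less of its RNA per cell cannot be told apart.

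The other germline α-tubulin, tba-1, differed less from P0. It was at 926, 849 and 904 CPM in P0, 801, 875 and 986 CPM in F2 fertile, 745, 829 and 908 CPM in F4 fertile gonads and 650.5, 761 and 832 CPM in F4 sterile gonads. F4 sterile libraries did not overlap P0, but F2 fertile and F4 fertile libraries did. The F4 sterile log2 fold change against P0 was -0.26 ± 0.11 and was not called by the edgeR fit. With lineage as a replicate block it was -0.27 and was called, as it was at -0.34 without F4 sterile replicate 3 and at -0.39 without P0 replicate 2.

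The β-tubulins tbb-1 and tbb-2 parted. For tbb-1, lineages 1, 2 and 3 gave 1158, 983 and 1037 CPM in P0, 952, 987 and 1061 CPM in F2 fertile, 860.2, 956 and 968 CPM in F4 fertile gonads, and 690.2, 702 and 795 CPM in F4 sterile gonads. All 3 F4 sterile libraries were below all 9 others. The log2 fold change of tbb-1 was -0.54 ± 0.09 in F4 sterile against P0 gonads, which was called by the edgeR fit. It was -0.35 ± 0.09 in F4 sterile against F4 fertile gonads, which was not called. Neither F4 group carries the balancer, and its part in the fold against P0 cannot be told apart.

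For tbb-2, the levels were 2004, 1734 and 1809.5 CPM in P0, 1547, 1864 and 2101 CPM in F2 fertile, 1613, 1812 and 1973 CPM in F4 fertile gonads, and 1452, 1644 and 1789.7 CPM in F4 sterile gonads. These groups overlapped throughout. The log2 fold changes of tbb-2 against P0 were -0.01 ± 0.13 in F2 fertile, -0.04 ± 0.13 in F4 fertile gonads and -0.18 ± 0.13 in F4 sterile gonads.

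Library names carry 3 prefixes, read here as library runs, and the F4 fertile and F4 sterile libraries of each lineage share 1 run. The F4 sterile to F4 fertile ratio of tbb-1 within these runs was 0.802 in lineage 1, 0.734 in lineage 2 and 0.821 in lineage 3. For tbb-2 the same ratio was 0.901, 0.907 and 0.907. Against P0, F4 sterile tbb-1 stood at 0.606 and 0.787 in the 2 runs that held both groups, and tba-2 at 0.713 and 0.811. Each of these within-run ratios for tbb-1 and tba-2 was below 1.

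The composition of the tubulin pool does not depend on the scaling of libraries. By reads per kb, tbb-1 made up 36.5 ± 0.219% of the 4 β members in P0, 35.4 ± 2.35% in F2 fertile, 34.1 ± 1.02% in F4 fertile gonads and 30.7 ± 1.47% in F4 sterile gonads (SD, n = 3). The F4 sterile shares, 32.1, 29.2 and 30.6%, were below those of all other libraries. The ratio of tbb-2 to tbb-1 was 1.74 ± 0.0165 in P0, 1.83 ± 0.184 in F2 fertile, 1.93 ± 0.0886 in F4 fertile gonads and 2.23 ± 0.119 in F4 sterile gonads. F4 sterile ratios, of which the lowest was 2.10, did not overlap the other groups, whose highest was 2.03.

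In the α pool the shift was smaller. The share of tba-1 was 32.0 ± 0.875% in P0, 33.5 ± 0.717% in F2 fertile, 34.6 ± 1.40% in F4 fertile gonads and 35.2 ± 0.568% in F4 sterile gonads. F4 sterile overlapped F4 fertile but not P0. Summed α members over summed β members gave 0.952 ± 0.0330 in P0, 0.926 ± 0.0157 in F2 fertile, 0.868 ± 0.0331 in F4 fertile gonads and 0.880 ± 0.0289 in F4 sterile gonads. Shares carry the same uncertainty of paralog reads as the levels. They are given as a description, with no test, since the members were chosen with results known.

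**Figure D2:**
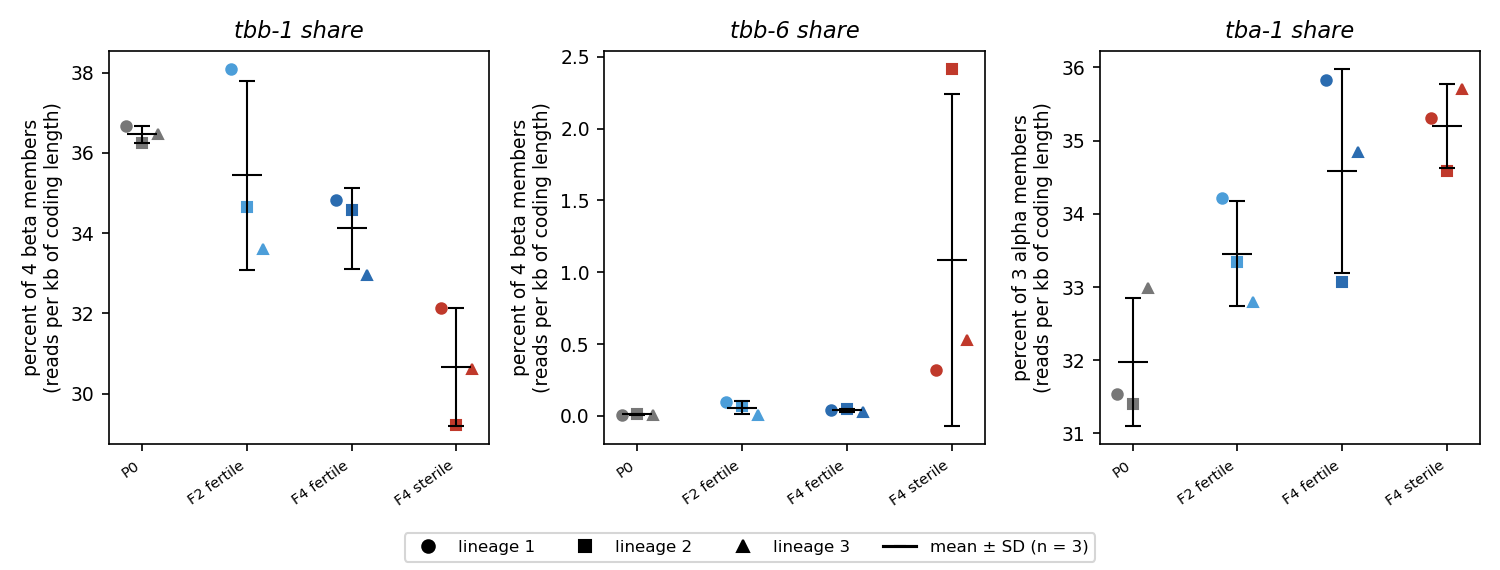
Share of tbb-1 and of tbb-6 among the 4 β members and of tba-1 among the 3 α members, in percent of reads per kb of coding length, by library, with mean ± SD (n = 3). The axes of the tbb-1 and tba-1 panels do not start at 0: tbb-1 spans 29.2 to 38.1% and tba-1 31.4 to 35.8%, while tbb-6 reached 2.42% in 1 F4 sterile library.

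The γ-tubulin gene tbg-1, needed at centrosomes and at the membrane sites where germline microtubules start, was not lower in F4 sterile gonads. It was at 118, 128 and 117 CPM in P0, 152, 124 and 109 CPM in F2 fertile, 128, 139.5 and 113 CPM in F4 fertile gonads, and 147, 132 and 138 CPM in F4 sterile gonads. F4 sterile libraries lay just above P0 without overlap, with a log2 fold change of 0.20 ± 0.12 that was not called. F2 fertile and F4 fertile libraries overlapped both.

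The divergent β-tubulin tbb-6 had the largest fold between F4 sterile and P0 gonads of the 7 members tested. P0 libraries held 2, 1 and 1 reads of it, or 0.281, 0.298 and 0.240 CPM, which is under the floor. F2 fertile libraries held 16, 14 and 1 reads (2.25, 1.77 and 0.225 CPM), and F4 fertile libraries 5, 14 and 3 reads (0.894, 1.32 and 0.759 CPM). F4 sterile libraries held 42, 507 and 62 reads, or 6.44, 55.1 and 12.96 CPM. All 3 were above all 9 others, and lineage 2 was the highest of them.

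Over groups, 611 reads of tbb-6 in F4 sterile against 4 in P0 gonads gave a ratio of 109, with a 95% interval of 42.4 to 402 that covers counting error only. Against 22 reads in F4 fertile gonads the ratio was 27.3 (17.9 to 43.9). The fitted log2 fold change was 5.42 ± 0.82 against P0 and 4.22 ± 0.72 against F4 fertile. Without F4 sterile replicate 2 these became 3.98 and 2.82. Within library runs, F4 sterile tbb-6 was 7.21, 41.7 and 17.1 times F4 fertile in lineages 1, 2 and 3. Even so, tbb-6 stayed a minor β-tubulin by reads per kb: its share of the 4 β members in F4 sterile gonads was 0.316, 2.42 and 0.526%, averaging 1.09% and, without replicate 2, 0.421%. The P0 average was 0.00995%.

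In the earlier generation tbb-6 was uneven. F2 fertile gonads had 31 reads against 4 in P0, a ratio of 5.83 (2.06 to 22.7). However, 1 of the 3 F2 libraries, at 0.225 CPM, held 1 read, which is under the floor and no more than in any P0 library. The 22 F4 fertile reads gave a ratio of 3.998 (1.36 to 15.96) to P0. Neither fitted fold was called, at 1.63 ± 0.80 for F2 fertile and 1.20 ± 0.80 for F4 fertile. tbb-6 passed the filter on low counts through its F4 sterile libraries.

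The ciliated-neuron β-tubulin tbb-4 was at or near 0 in all groups but F4 sterile, and it failed the filter on low counts, so it was not in the edgeR test. Its reads were 0, 0 and 1 in P0, 4, 3 and 1 in F2 fertile, 0, 0 and 2 in F4 fertile, and 7, 27 and 8 in F4 sterile libraries. The last correspond to 1.07, 2.94 and 1.67 CPM, above the highest of the other 9 libraries at 0.563 CPM. Over groups, 42 reads in F4 sterile against 1 in P0 gave a ratio of 30.0 (5.10 to 1213), and against 2 in F4 fertile a ratio of 20.6 (5.37 to 176). Of 12 intraflagellar transport genes of ciliated neurons 9 had too few reads to be tested. Of the 3 tested, 1 was called, higher in F4 sterile against P0 gonads, beside 26.4% of all genes. It was che-3, a dynein heavy chain that moves cargo in cilia (log2 fold change 2.10 ± 0.46, adjusted p = 0.00258 in edgeR). The list summed to 22.4 to 49.2 CPM in F4 sterile and 19.4 to 31.7 CPM in P0 gonads. Most of these reads were on osm-1 and osm-3, which were tested and not called. On average osm-3 was lower in F4 sterile than in P0 gonads, at 10.1 against 14.8 CPM. The average of osm-1 was higher, at 11.4 against 8.28 CPM, and both genes had overlapping ranges. xbx-1 and bbs-8 had no reads in P0. Of the genes not tested, osm-5 had 30 reads in F4 sterile and 4 in P0 gonads and osm-6 had 28 in F4 sterile and 4 in P0 gonads. The part of neuronal cells in the tbb-4 reads was not tested.

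Most of the broad neuronal genes tested were higher in F4 sterile than in P0 gonads. Of 14 such genes 9 were tested against P0, with a median log2 fold change of 1.89 beside 0.05 over all genes tested. Of the 9, 8 were called higher, beside 26.4% of all genes. Among them were unc-64, encoding syntaxin (2.43 ± 0.40, adjusted p = 0.000411), unc-119 (2.39 ± 0.36, adjusted p = 0.000205) and the proprotein convertase gene egl-3 (2.28 ± 0.53, adjusted p = 0.00364). The count was 5 without F4 sterile replicate 2. The list summed to 162 to 199 CPM in F4 sterile and 103 to 110 CPM in P0 gonads. Most of these reads were on snb-1, which averaged 119.7 CPM in F4 sterile and 93.2 CPM in P0 gonads. Reads of the untested rab-3, sbt-1, rgef-1, snt-1 and ric-4 were 19, 91, 17, 10 and 15 in F4 sterile gonads. In P0 gonads they were 1, 1, 5, 2 and 7. Of the genes tested, egl-3 and ida-1 passed the filter on low counts through their F4 sterile libraries.

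The somatic α-tubulin tba-4 followed another order, in which library and not group stood out. Its reads were 15, 10 and 10 in P0, 18, 27 and 7 in F2 fertile, 1, 17 and 16 in F4 fertile, and 3, 66 and 13 in F4 sterile libraries, or 0.179 CPM at the lowest and 7.18 CPM at the highest. Both F4 libraries of lineage 1 were the lowest, and F4 sterile of lineage 2 the highest. All groups overlapped. The fitted log2 fold change in F4 sterile against P0 gonads was 0.48 ± 0.72. The yolk protein gene vit-2, made in the intestine, was likewise lowest in these libraries of lineage 1, at 346 CPM in F4 sterile and 384 CPM in F4 fertile gonads. The other 10 libraries had between 1026 and 1804 CPM of vit-2. The part of intestinal RNA in the tba-4 reads was not tested.

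**Figure D3:**
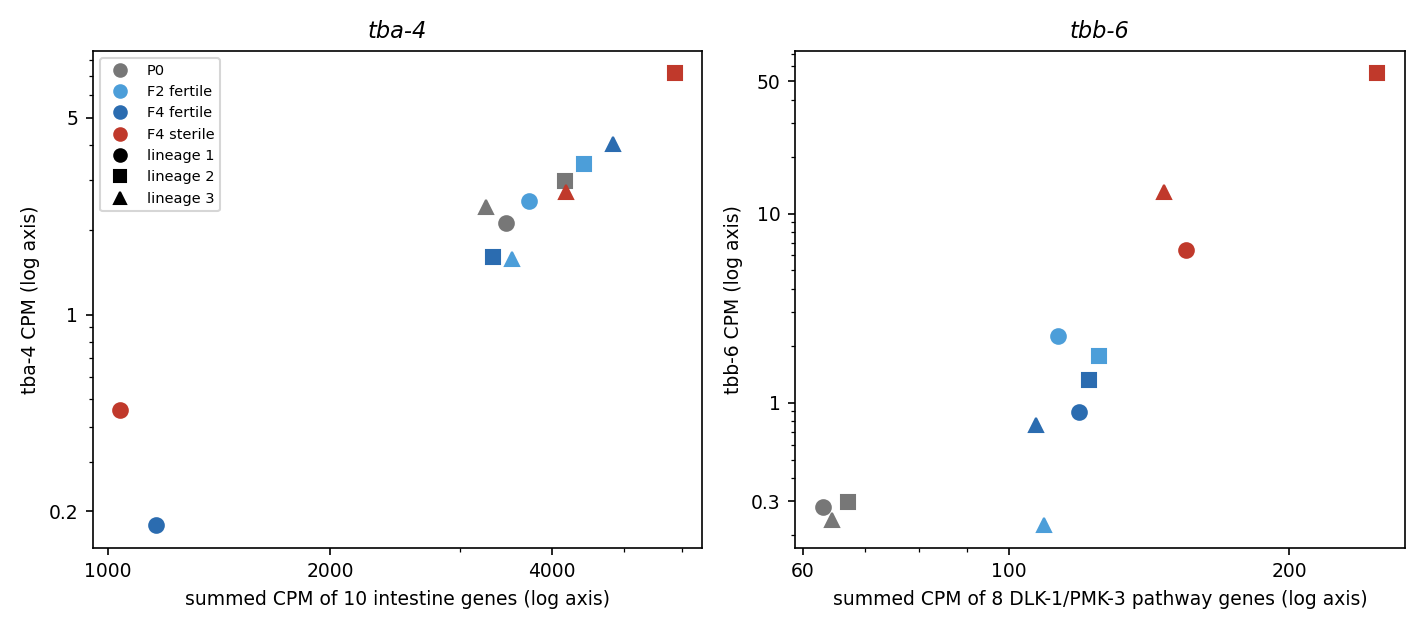
Left, tba-4 CPM against the summed CPM of 10 intestine genes, most of it on vit-2, vit-5 and vit-6. Right, tbb-6 CPM against the summed CPM of 8 DLK-1/PMK-3 pathway genes. All axes are log axes, each point is 1 library (colour for group, symbol for lineage), and the 3 F4 sterile libraries lie at the upper right for tbb-6, whereas the 2 F4 libraries of lineage 1 lie at the lower left for tba-4.

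Against P0, none of the 7 members tested was called in F2 fertile gonads, where 8.93% of the 8746 genes tested were called at an adjusted p under 0.05, 7.6% as higher and 1.33% as lower. None was called in F4 fertile gonads either, where the share of all genes was 21.1%, with 13.7% higher and 7.42% lower. In these 2 comparisons 1991 and 3041 of all genes had an unadjusted p under the same threshold. DESeq2's Wald test also called no member in either comparison. In F4 sterile gonads 3 of 7 were called, beside 43.3% of all genes: 1 of 7 was called higher (tbb-6), where 26.4% of all genes were, and 2 of 7 lower (tba-2 and tbb-1), where 16.8% were. The 3 comparisons share the P0 libraries. The F4 sterile count was 5 without P0 replicate 2, which added tba-1 and tbb-4.

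F4 sterile against F4 fertile gonads gave 1 of 7 members called higher, tbb-6, beside 2.85% of all genes, and none lower, beside 0.434% (3.28% in both directions). With lineage as a replicate block the count was 2, with tbb-1 added as lower. It was also 2 without F4 sterile replicate 3. It was 0 without F4 fertile replicate 1, without replicate 2 or without replicate 3 of that group, when the fold of tbb-6 was 4.14, 4.43 and 4.09 on the log2 scale. In F4 fertile against F2 fertile gonads no member was called, beside 0.0114% of all genes, of which 808 had an unadjusted p under the threshold, and DESeq2 called none of the members either.

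Counting libraries that do not overlap, 5 of 7 members separated F4 sterile from P0 gonads: tbb-6 and tbg-1 above, and tba-1, tba-2 and tbb-1 below. The share of all genes that did so was 51.8%, 29.7% above and 22.1% below. For F4 fertile against P0 the members were 3 of 7 (tbb-6 above, tba-2 and tbb-1 below) beside 44.5% of all genes, 25.4% above and 19.1% below. For F2 fertile against P0 no member separated, beside 31.8% (21.1% above, 10.7% below). For F4 sterile against F4 fertile they were 2 of 7 (tbb-6 above, tbb-1 below) beside 21.9%, 14.2% above and 7.67% below, and for F4 fertile against F2 fertile none, beside 15.5%, 6.7% above and 8.79% below.

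**Figure D4:**
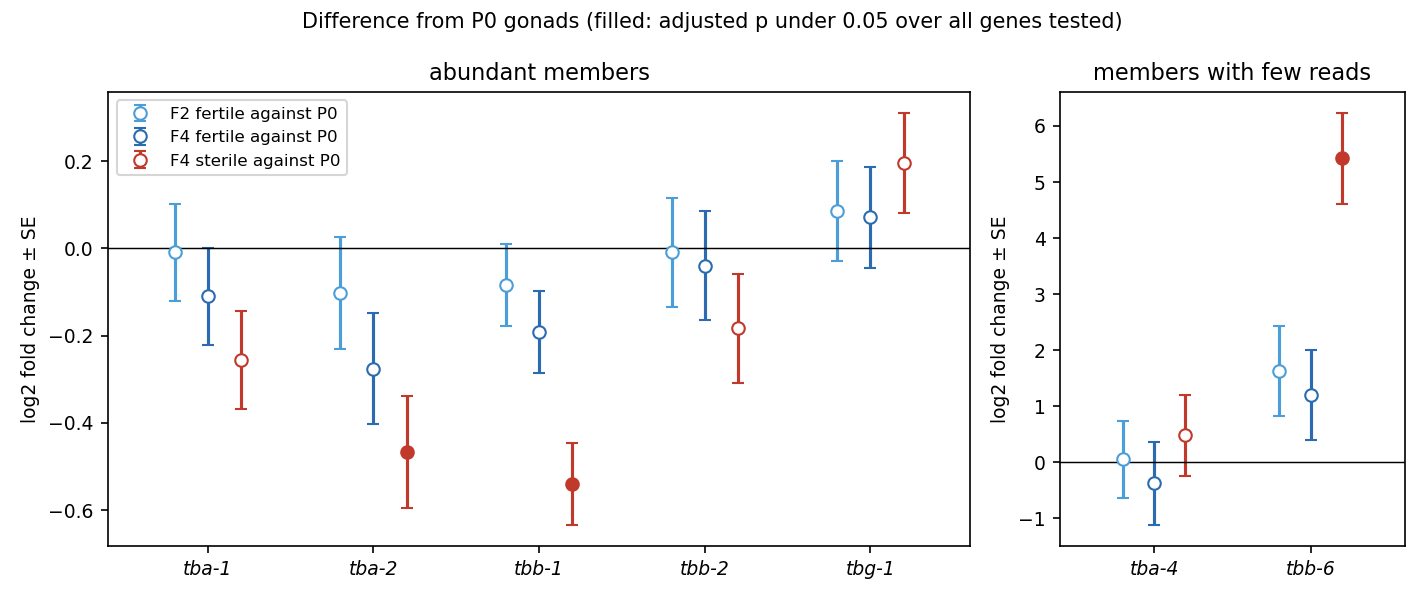
Log2 fold change ± SE of the 7 tested members against P0 in F2 fertile, F4 fertile and F4 sterile gonads, with filled symbols for adjusted p under 0.05 over all genes tested and separate vertical scales for the 2 panels. The filled points are tba-2 at -0.47, tbb-1 at -0.54 and tbb-6 at 5.42, all in F4 sterile gonads.

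Of the 8 remaining α- and β-tubulin genes, ben-1 alone had enough reads to be tested. This β-tubulin, the target of benzimidazole drugs, was at 38.7, 38.4 and 41.1 CPM in F2 fertile gonads, against 28.9, 26.5 and 18.7 CPM in P0 gonads, without overlap. The log2 fold change was 0.66 ± 0.20 in F2 fertile (adjusted p = 0.0541), 0.50 ± 0.20 in F4 fertile (adjusted p = 0.0892) and 0.33 ± 0.20 in F4 sterile against P0 gonads (adjusted p = 0.197), none of which was called. The touch-neuron tubulins mec-7 (β) and mec-12 (α) had at most 16 reads in any library, and tba-5, tba-6, tba-7, tba-8 and tba-9 at most 10. tba-5 and tba-6 had no reads in P0.

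Genes that act on tubulin were read from lists. The chaperonin CCT and its partner prefoldin fold newly made tubulin and actin. Their 14 subunit genes, all tested, had a median log2 fold change of -0.46 in F4 sterile against P0 gonads, beside 0.05 over all genes. Of the 14, 10 were called lower and none higher, beside 16.8% and 26.4% of all genes. All 8 cct genes were among them. cct-7 averaged 423 ± 84.4 CPM in F4 sterile and 692 ± 44.4 CPM in P0 gonads (log2 fold change -0.71 ± 0.15, adjusted p = 0.00169). For cct-1, cct-3 and cct-2 the log2 fold changes were -0.71 ± 0.13, -0.54 ± 0.11 and -0.54 ± 0.08 (adjusted p = 0.000943, 0.00201 and 0.000216). In F4 fertile gonads 9 of the 14 were already lower than P0, beside 7.42% of all genes, and in F2 fertile gonads none, beside 1.33%. None was called between F4 sterile and F4 fertile gonads, beside 3.28%.

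Of 12 proteins that cut, depolymerise, stabilise or track microtubules, 5 had lower transcripts in F4 sterile against P0 gonads and 1 higher. The shares of all genes tested were 16.8% and 26.4%. Lower were cls-2, a CLASP (-0.60 ± 0.10, adjusted p = 0.000470), zyg-9, the XMAP215 polymerase (-0.56 ± 0.12, adjusted p = 0.00196), the depolymerising kinesin klp-7 (-0.47 ± 0.10, adjusted p = 0.00310), klp-18 and mei-1. The tau-like gene ptl-1, active mostly in neurons, was higher (1.30 ± 0.36, adjusted p = 0.0108). It was at 6.01 ± 0.598 CPM in F4 sterile and 2.23 ± 0.270 CPM in P0 gonads, and without P0 replicate 3 its adjusted p was 0.0551.

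The partners of γ-tubulin were mostly not called in F4 sterile against P0 gonads, where 43.3% of all genes were. Of 8 genes 1 was called in F4 sterile against P0 gonads: ptrn-1, which encodes Patronin, a binder of minus ends, rose to 34.3, 48.6 and 26.96 CPM in F4 sterile gonads, against 8.99, 8.35 and 11.8 CPM in P0 gonads (log2 fold change 1.89 ± 0.23, adjusted p = 4.58e-05). It was higher against P0 in F2 fertile and F4 fertile gonads too, at 0.91 and 1.21. The count was 2 without F4 sterile replicate 2, without P0 replicate 1 or without P0 replicate 3, and 3 without P0 replicate 2. The centrosome genes spd-2 and spd-5 stood at 0.03 ± 0.08 and -0.09 ± 0.07.

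Among 10 genes of tubulin modification, 5 were tested, and 1 was called in F4 sterile against P0 gonads, beside 43.3% of all genes. The α-tubulin acetyltransferase gene atat-2 was higher in F4 sterile gonads, at 5.21, 8.92 and 3.13 CPM, against 0.140, 0.596 and 0 CPM in P0 gonads (log2 fold change 3.53 ± 0.54, adjusted p = 0.000230). It was higher in F4 fertile against P0 gonads as well, at 2.11. Like tbb-6, atat-2 passed the filter on low counts through its F4 sterile libraries. With lineage as a replicate block 2 of the 5 were called, as they were without F4 sterile replicate 1.

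**Figure D5:**
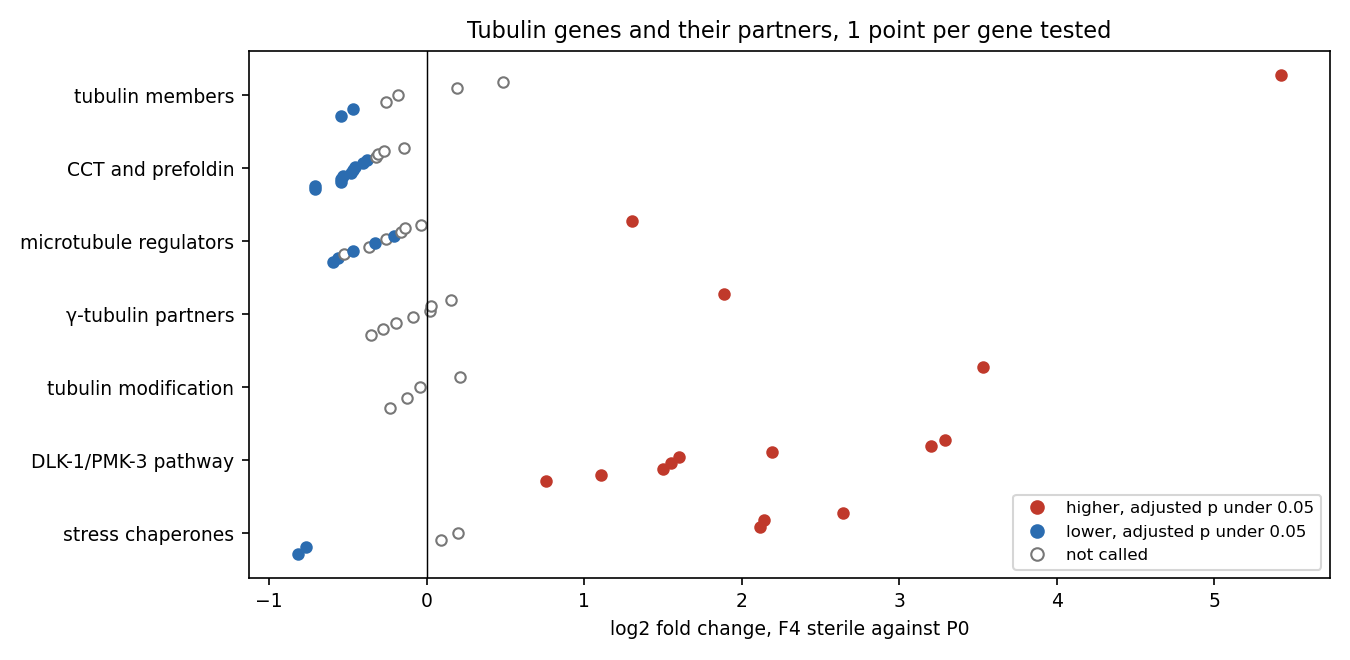
Log2 fold change in F4 sterile against P0 gonads, 1 point per gene tested, for the tubulin members and 6 lists of genes that act with tubulin or with tbb-6. Filled points passed an adjusted p of 0.05: 10 of 14 CCT and prefoldin genes lie below 0, all 8 DLK-1/PMK-3 pathway genes lie above, and tbb-6 lies farthest to the right.

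The DLK-1/PMK-3 pathway, a MAP kinase cascade best known from axon regeneration, is the one on which the tbb-6 reporter depends. The list holds 8 genes, 1 of them the ubiquitin ligase gene rpm-1, which restrains the cascade by degrading DLK-1. All 8 were called higher in F4 sterile against P0 gonads, beside 26.4% of all genes. The median log2 fold change was 1.57 beside 0.05 over all genes. cebp-1 was picked out in the study of these samples, and the list was drawn up with results known, so the count is no independent evidence of its direction. The kinase gene pmk-3 was at 8.28, 26.8 and 12.7 CPM in F4 sterile gonads, against 2.11, 1.49 and 0.240 CPM in P0 gonads (log2 fold change 3.29 ± 0.54, adjusted p = 0.000397). The transcription factor gene cebp-1 was at 5.37, 39.4 and 12.7 CPM in F4 sterile gonads, against 1.41, 1.79 and 2.40 CPM in P0 gonads (3.20 ± 0.63, adjusted p = 0.00128). In both, lineage 2 was the highest F4 sterile library, as for tbb-6. That library was also the highest for the muscle, intestine, sperm, broad neuronal and ciliated neuron lists. Without it (F4 sterile replicate 2) 7 of the 8 genes were called, and the log2 fold change was 2.60 for pmk-3 and 2.03 for cebp-1. The part of other tissues in these levels was not tested.

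Upstream and downstream kinase genes were higher too, sek-3 by 2.19 ± 0.29 (adjusted p = 7.03e-05) and mak-2 by 1.60 ± 0.28 on the log2 scale (adjusted p = 0.000524). The list summed to 63.1 to 67.1 CPM in P0, 109 to 125 CPM in F2 fertile, 107 to 122 CPM in F4 fertile gonads and 147 to 248 CPM in F4 sterile gonads. P0 and F4 sterile overlapped neither each other nor the fertile groups. Of the 8 genes, 2 were called higher in F2 fertile and 4 in F4 fertile against P0, beside 7.6% and 13.7% of all genes. Between F4 sterile and F4 fertile gonads cebp-1 alone was called higher (2.37 ± 0.58, adjusted p = 0.0454 in edgeR), beside 2.85% of all genes.

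Of 10 stress chaperone genes 7 were tested. In F4 sterile against P0 gonads, 3 of them were called higher and 2 lower, beside 26.4% and 16.8% of all genes. With DESeq2, and also without a filter on low counts, 6 were higher and 2 lower. The genes hsp-16.1, hsp-16.2 and hsp-16.48, which the filter removed, had 69, 72 and 100 reads in F4 sterile and 3, 6 and 10 reads in P0 gonads. Both hsp-70 and hsp-16.41 passed this filter through their F4 sterile libraries. The heat shock genes hsp-70 (2.64 ± 0.46, adjusted p = 0.000556) and hsp-16.41 (2.14 ± 0.56, adjusted p = 0.00815) and the endoplasmic reticulum chaperone hsp-3 (2.12 ± 0.19, adjusted p = 4.24e-06) were higher. hsp-4, its close paralog, was lower (-0.81 ± 0.10, adjusted p = 3.32e-05), and reads of this pair may be split uncertainly. Of the chaperones that mark mitochondrial stress, hsp-60 was lower (-0.77 ± 0.13, adjusted p = 0.000501) and hsp-6 was not called (0.20 ± 0.11, adjusted p = 0.151).

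Germ cell genes were mostly lower in F4 sterile gonads, as tba-2 and tbb-1 were. Of 14 genes 11 were lower in F4 sterile against P0 gonads, beside 16.8% of all genes. Among the 11 were pgl-3 of P granules (-0.87 ± 0.08, adjusted p = 5.68e-06 in edgeR), the translational repressor gld-1 (-0.74 ± 0.09, adjusted p = 3.89e-05) and the oocyte yolk receptor rme-2 (-0.72 ± 0.12, adjusted p = 0.000357). syp-1, of the synaptonemal complex, was higher (0.49 ± 0.12, adjusted p = 0.00428). The list summed to 9239 to 11259 CPM in F4 sterile and 14114 to 15017 CPM in P0 gonads. Of the marker genes of other tissues tested, 1 of 10 was higher for muscle, 1 of 7 for intestine and 1 of 2 for sperm, and 1 was higher and 1 lower among 4 for hypodermis and among 4 for the somatic gonad. Over all genes tested, 26.4% were higher and 16.8% lower. The sperm list holds 10 genes, of which 2 had enough reads to be tested. The sperm gene called, fer-1, and the hypodermis gene called higher, che-14, passed the filter on low counts through their F4 sterile libraries. The part of germ cell number in the levels of tba-2 and tbb-1 was not tested.

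The likeness of patterns was read from Pearson's r of log2 CPM over the 12 libraries, as a description, since libraries of a group share their group and those of a run their depth. tbb-6 was most like F11C1.5 (r = 0.987), T05E11.9 (0.984) and the TWiK potassium channel gene twk-31 (0.983). tbb-1 was most like the glyceraldehyde-3-phosphate dehydrogenase genes gpd-1 (0.981) and gpd-4 (0.976) and the β-catenin gene hmp-2 (0.957), and tba-4 like the cathepsin L gene cpl-1 (0.965), vit-2 (0.953) and the glutamate transporter gene glt-1 (0.949). tbb-2 was most like the replication helicase gene mcm-4 (0.958), tba-2 like K08D12.3 (0.975), tba-1 like Y55F3AM.13 (0.967) and tbg-1 like hipr-1 (0.920). Among the members, tba-1 and tba-2 had an r of 0.943, tba-1 and tbb-2 of 0.930, and tbb-1 and tbb-6 of -0.866.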

How the data were processed

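RNA of dissected gonads was depleted of ribosomal RNA and sequenced by the authors, who mapped reads with TopHat2 to WS220, kept uniquely mapping reads and deposited whole counts per gene from HTSeq. Versions are not given in the sources used here. The authors' deposited normalized values, a signal scaled by DESeq2 size factors, served as an alternative for isotype shares, and their own fold changes and p-values were not used. Reads on no gene (8.23 to 14.4% per library) and ambiguous reads (1.76 to 2.24%) were left out of library sizes.

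Counts were fitted with edgeR 4.0.16 in R 4.3.3 (TMM, filterByExpr, quasi-likelihood test, prior count 2), all 12 samples in 1 fit with 1 coefficient per group, Benjamini-Hochberg adjustment over 8746 genes, two-sided, threshold 0.05. The fit was tested on simulated data. Alternatives were RLE scaling, DESeq2 1.42.0, no filter, only the 2 groups compared, library run as covariate, lineage as block, and leaving out each sample. CPM per kb used coding lengths of the WBcel235 annotation. Intervals of read ratios are exact and cover counting error only.

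Groups came from the sample labels. The replicate number was read as the lineage, which the labels say each group sampled once. The titles do not state that a number marks the same lineage in every group, so the pairing of samples is a reading. Deviations of same-lineage samples correlated at a mean r of 0.0953 over 18 pairs (-0.142 to 0.607), 7 of them over 0.1, and other pairs at -0.0477. Each of these 7 pairs also shared a library run, so lineage and run cannot be told apart in them. Same-lineage pairs from different runs had an r of at most 0.0350. The main fit has no block, as in the study.

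The members and gene lists were chosen with earlier results of these data known. Genes were named by rule: all members, the 8 other tubulins, set-2, up to 4 called genes of each list with the largest change in F4 sterile against P0, and the 3 genes most like a member. Other genes named were chosen after their values were seen.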

Additional observations from a re-analysis of the deposited data

How the results depend on the processing

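Among the tested members, set-2 and the list genes named by rule, no fold called in the main fit or in an alternative changed direction. Folds called in neither were not compared for direction. In F4 sterile against P0 gonads, 3 members were called, and 5 with DESeq2 and 6 without a filter on low counts, both of which add tba-1 and tbb-4. Leaving out 1 library gave 3 to 5. In F4 sterile against F4 fertile gonads, where 1 was called, DESeq2 and the library run gave 2, no filter 3, the fit of the 2 groups alone 0 (adjusted p of tbb-6 0.123), and leaving out 1 library 0 to 2, the lowest without any 1 F4 fertile library. Without a filter, 1 member was called in F2 fertile (tbb-6) and 1 in F4 fertile against P0 (tba-2). In lists for F4 sterile against P0, γ-tubulin partners had 2 calls with RLE, 2 with DESeq2, 3 with the run and 1 to 3 leaving out 1 library, stress chaperones 8 with DESeq2 and 8 without a filter, tubulin modification 2 with the run and 1 to 2 leaving out 1 library, and other tubulins 1 with the run and 0 to 1 leaving out 1 library. Counting ben-1 among the β-tubulins, chosen after seeing the data, put the P0 share of tbb-1 at 36.1%. The cause of these changes was not tested.

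With lineage as a replicate block, which pairs the samples, 4 members were called in F4 sterile against P0 (tba-1 at -0.27 added), 2 in F4 sterile against F4 fertile (tbb-1 at -0.35 added), 2 tubulin modification genes and 0 members in the other 3 comparisons. It changed no other call of a member. All genes called in F4 sterile against F4 fertile gonads numbered 287, and 654 with DESeq2, 1007 without a filter, 603 with the block, 1174 with the run and 0 with the 2 groups alone. In F4 fertile against F2 fertile gonads 1 gene was called, and 11, 137, 1, 10 and 1 in the same order.

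Depth limits tbb-4, tba-4 and, outside F4 sterile gonads, tbb-6, whose libraries often held fewer than 20 reads. A difference between groups other than F4 sterile was not detectable for tbb-4 at this depth.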
